A study of Sus scrofa with 12 samples.

Results

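The cytosolic ribosomal protein genes were described in pig aortic valve interstitial cells, the fibroblast-like cells of the valve leaflet, before and after culture and with TGF-β1. The members were the probe sets whose platform annotation named 1 gene of the pattern RPL or RPS with a number, RPLP0 to RPLP2 or RPSA, ribosomal S6 kinases left out, and whose log2 signal lay above 4 on 3 or more of the 12 arrays. They were 90 of 17638 probe sets tested and stood for 63 of 6014 genes. Of 96 probe sets that matched the names, 6 did not pass the level rule, and RPL30 was the 1 gene lost by it. Just inside that limit lay the RPS15A probe set, between 3.37 and 4.35 over the arrays, and just outside it a second RPS13 probe set, which reached 4.20 and was over 4 in 2 arrays. The 63 genes held 30 proteins of the large subunit, 3 of its stalk, 24 of the small subunit and 4 paralogs (RPL22L1, RPL26L1, RPL36AL and RPS27L). The other 2, RPL7L1 and RPS19BP1, match the pattern by name but are not structural proteins of the ribosome. Of 79 structural proteins, 57 had a member gene and 22 did not, among them RPL10, RPS3 and RPS14.

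Each of the 4 groups held 3 biological replicates from adult pigs, 1 array each. Fresh cells (P0) were released from the leaflets with collagenase II and used with no culture. Passaged cells (P2) went through 2 passages on tissue culture plastic. They were grown in media 199 with 15% fetal bovine serum and then held in the same medium with 1% of it. They were left untreated or given porcine TGF-β1 at 5 ng/ml for the last 8 h or 24 h, and all P2 cells were collected on day 3 of culture. So fresh and passaged cells differed at once in plastic, serum, passages and time out of the tissue, and these cannot be told apart. The sources used here do not say which animals gave which array, so p-values measure the spread between these samples only.

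The ribosome is built from a large and a small subunit, each a core of ribosomal RNA dressed with many small proteins made in near equal number. The messages of nearly all ribosomal proteins start with a pyrimidine tract, called a TOP tract, through which mTOR signalling controls how often they are translated, so that much of their control is known to lie in translation and not in message level. New subunits are put together in the nucleolus from ribosomal RNA made by RNA polymerase I, with the help of many assembly factors that leave before the ribosome works. TGF-β1 turns valve interstitial cells towards contractile, matrix-secreting myofibroblasts.

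Most member genes gave high signals, but this does not test their annotation. The level rule and the choice of probe set for each gene both favour high signal. The representative probe set of a gene, the one with the highest mean signal, was over log2 14 in all 12 arrays for 49 of the 63 genes and over 13 for 54. On average 165 of the tested probe sets lay over log2 14, and 57 of them, 34.5%, were members. RPS15A was the exception, with every group mean under 4.58, the 95th percentile of the reporter control probe sets, and RPL26 lay near that level at 4.34 to 5.30. Signals of different probe sets are not amounts of RNA that can be set against each other, so only differences between arrays are compared. Replicates lay close together: the median SD within a group was 0.0526 for the representatives against 0.200 for all probe sets.

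Over whole arrays, markers of valve interstitial cells were high in sum in every group. The log2 of their summed signal was 17.70 to 17.76 in fresh and 17.28 to 17.35 in untreated passaged cells. Such a sum follows its brightest genes, and COL3A1 averaged only 5.93 in untreated passaged cells. Of the 12 tested, 6 fell and 1 rose in culture, beside 24.2% and 42.1% of all genes. Macrophage markers lay at 13.71 to 14.30 in fresh cells and 10.39 to 11.48 in untreated passaged cells, and 11 of their 12 tested genes fell. All 8 lymphocyte markers on the array were under the control level in all 4 groups. Endothelial markers spread more within untreated passaged cells, from 10.29 to 12.61, than in fresh cells, from 11.76 to 12.13. In such mixed samples, fewer cells of a type and less RNA per cell cannot be told apart.

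Ribosomal protein messages were modestly higher in passaged cells than in fresh cells. The mean over the 63 genes was 13.94, 13.88 and 13.94 in the 3 fresh arrays and 14.23, 14.24 and 14.22 in the untreated passaged arrays. The groups did not overlap. In the limma fit, 34 genes rose, 0 fell and 29 did not pass the test (Benjamini-Hochberg adjusted p under 0.05). The rising share was 54.0%, beside 42.1% of all 6014 genes called higher, and 24.2% of all genes were called lower. The median log2 fold change was 0.26, beside 0.20 over all genes. Sizes were small: 3 of the 63 genes changed at least 2-fold, against 31.3% of all genes. The 3 untreated arrays lay above all 3 fresh arrays for 51 of the 63 genes, a pattern that 45.6% of all genes showed, and below them for RPS27 alone, beside 26.4% of all genes. With each array brought to the same median, the median change was 0.18 and 50 instead of 60 genes lay above 0, and with quantile normalization these were 0.20 and 55. Over all probe sets the median was 0.065 as deposited, -0.015 with equal array medians and 0.078 with quantile normalization. Neither scaling turned the sign of a gene that passed the test.

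**Figure D1:**
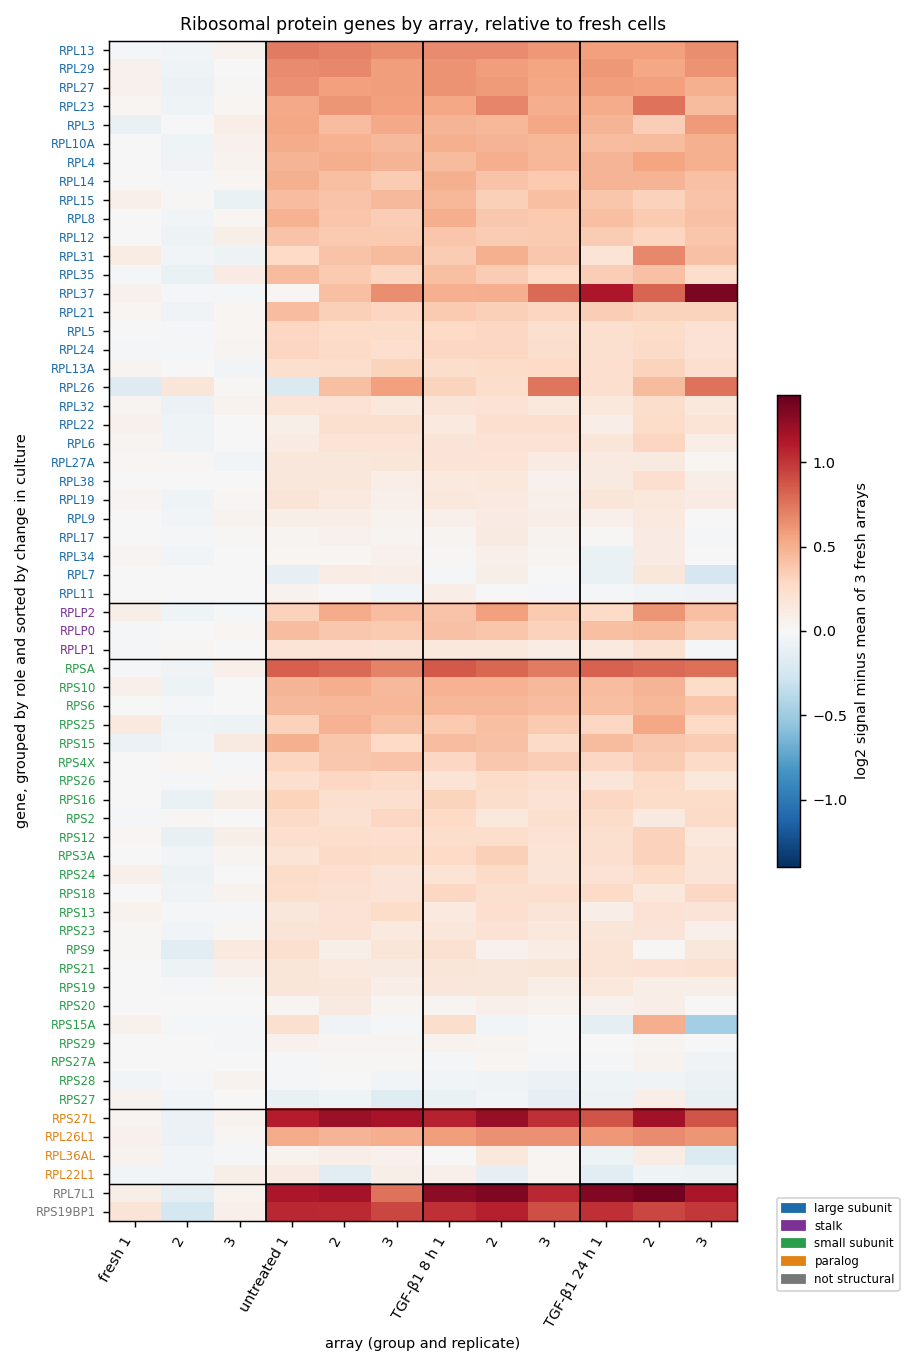
Log2 signal of the representative probe set of each of the 63 genes in each of the 12 arrays, less the mean of the 3 fresh arrays (colour scale, log2), with rows grouped by role and sorted by the change in culture. Most rows are red in all 9 passaged arrays alike, RPS27L and the 2 genes that are not structural stand out, and RPL37 is the row that deepens in the TGF-β1 arrays.

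Among the large subunit proteins, 17 of 30 rose, beside 42.1% of all genes called higher, with a median change of 0.31. RPL13 gave 13.79, 13.76 and 13.85 in fresh cells and 14.53, 14.49 and 14.45 in untreated passaged cells. That was a rise of 0.69 ± 0.0883 (SE, n = 3 arrays a group), or 1.62-fold. RPL29, a protein of the subunit surface, went from 14.04, 13.92 and 13.98 to 14.64, 14.65 and 14.57, a rise of 0.64 ± 0.0901. RPL27 rose by 0.60 and RPL23, which lies on the face that meets the small subunit, by 0.57. In each of these 4 genes the groups lay well apart. RPL3, which reaches to the peptidyl transferase centre, gave 13.96, 14.04 and 14.14 in fresh and 14.58, 14.48 and 14.58 in untreated passaged cells, a rise of 0.50 ± 0.102. RPL10A and RPL4, which lines the exit tunnel, rose by 0.49 each. The rises of 8 others (RPL8, RPL12, RPL14, RPL15, RPL21, RPL24, RPL31 and RPL35) lay between 0.27 and 0.43.

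RPL5 and RPL11 bind 5S ribosomal RNA as a pair and are known to hold the p53 inhibitor MDM2 when ribosome assembly is disturbed. RPL5 gave 14.94, 14.93 and 14.97 in fresh and 15.23, 15.20 and 15.20 in untreated passaged cells, a rise of 0.27 ± 0.0861. RPL11 gave 15.36, 15.37 and 15.36 against 15.41, 15.36 and 15.33, a difference of 0.00 ± 0.0883. So the RPL5 arrays parted by group and the RPL11 arrays overlapped, but the difference between the 2 genes was not tested. RPL13A, a protein that can also leave the ribosome and silence messages, rose by 0.26 ± 0.0882 (adjusted p = 0.0216). Without any call were RPL7 (0.03), RPL34 (0.04), RPL17 (0.04) and RPL9 (0.07). RPL22, known for roles in lymphocytes, differed by 0.18 ± 0.0973 (adjusted p = 0.133), with the groups apart but the call missed. Another 5 (RPL6, RPL19, RPL27A, RPL32 and RPL38) lay between 0.13 and 0.18 with no overlap of the arrays and no call, and RPL26, near the background, gave 0.26 ± 0.215.

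In the small subunit 11 of 24 proteins rose, near the 42.1% of all genes called higher. The median change was 0.22. RPSA, which is also known as the laminin receptor, had the largest rise among the representatives of structural proteins. Its signal was 14.55, 14.52 and 14.65 in fresh cells and 15.41, 15.37 and 15.27 in untreated passaged cells, a rise of 0.77 ± 0.0937 (adjusted p = 1.80e-05) or 1.71-fold. RPS6, the substrate of the S6 kinases downstream of mTOR, gave 14.55, 14.52 and 14.54 against 14.99, 15.00 and 15.00, a rise of 0.46 ± 0.0857. The spread within each group was a few hundredths for this gene. RPS10 rose by 0.48, RPS25 by 0.40, RPS15 by 0.39 and RPS4X by 0.36. RPS2, RPS3A, RPS12, RPS16 and RPS26 rose by 0.24 to 0.27, near the limit of the test. RPS19, the protein most often mutated in Diamond-Blackfan anaemia, gave 15.25, 15.24 and 15.27 against 15.42, 15.41 and 15.35, a difference of 0.14 ± 0.0877 that did not pass the test although the arrays did not overlap. A further 6 (RPS9, RPS13, RPS18, RPS21, RPS23 and RPS24) lay between 0.14 and 0.22 with no call, and of these RPS9 alone had overlapping arrays.

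Some small subunit proteins showed little or no difference in their representatives, though further probe sets of RPS27 and RPS27A departed from these, as given below. RPS27A, made as a fusion with ubiquitin, gave 15.32, 15.33 and 15.34 in fresh and 15.30, 15.34 and 15.35 in untreated passaged cells. RPS28 differed by -0.02, RPS29 by 0.05 and RPS20 by 0.07. RPS27, a zinc finger protein, gave 14.84, 14.75 and 14.79 against 14.69, 14.73 and 14.62, a difference of -0.11 ± 0.0955 (adjusted p = 0.349), with all passaged arrays below all fresh ones. RPS15A, under the control level, gave 0.05 ± 0.202 and holds no information on the gene.

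The stalk proteins RPLP0, RPLP1 and RPLP2 form the arm that recruits elongation factors to the ribosome. RPLP0, often used as a reference gene in quantitative PCR, gave 15.08, 15.10 and 15.14 in fresh and 15.54, 15.48 and 15.47 in untreated passaged cells. It rose by 0.39 ± 0.0893 (adjusted p = 0.00244). RPLP2 rose by 0.43 ± 0.117, from 13.34, 13.19 and 13.23 to 13.58, 13.78 and 13.69. RPLP1 gave 14.19, 14.22 and 14.20 against 14.40, 14.41 and 14.38, a difference of 0.19 ± 0.0933 that missed the threshold (adjusted p = 0.0955). All 3 stalk genes thus had passaged arrays above every fresh array.

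The largest change among the representatives was in a paralog. RPS27L, a near copy of RPS27 known as a p53 target, gave 11.51, 11.39 and 11.53 in fresh and 12.57, 12.69 and 12.63 in untreated passaged cells. The rise was 1.15 ± 0.113 (adjusted p = 3.00e-06) or 2.23-fold, but its probe set is of a type marked as shared by more than 1 transcript. RPL26L1, a paralog of RPL26, rose by 0.50 ± 0.0897 from 10.92, 10.77 and 10.87 to 11.38, 11.33 and 11.37. RPL22L1, which can take the place of RPL22, gave 12.76, 12.76 and 12.88 against 12.91, 12.64 and 12.88, a difference of 0.01 ± 0.108. RPL36AL differed by 0.07 ± 0.103. The RPL22L1 arrays overlapped, and the passaged RPL36AL arrays, at 13.06 to 13.11, began where the fresh ones ended.

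The 2 members that are no structural proteins both rose about 2-fold. RPL7L1, a nucleolar relative of RPL7, went from 10.66, 10.46 and 10.63 to 11.71, 11.75 and 11.34, a rise of 1.02 ± 0.133. RPS19BP1, which binds RPS19 and the deacetylase SIRT1, went from 9.17, 8.74 and 9.05 to 10.04, 10.03 and 9.92, a rise of 1.01 ± 0.120. Without them, 32 of 61 genes rose, beside 42.1% of all genes called higher.

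**Figure D2:**
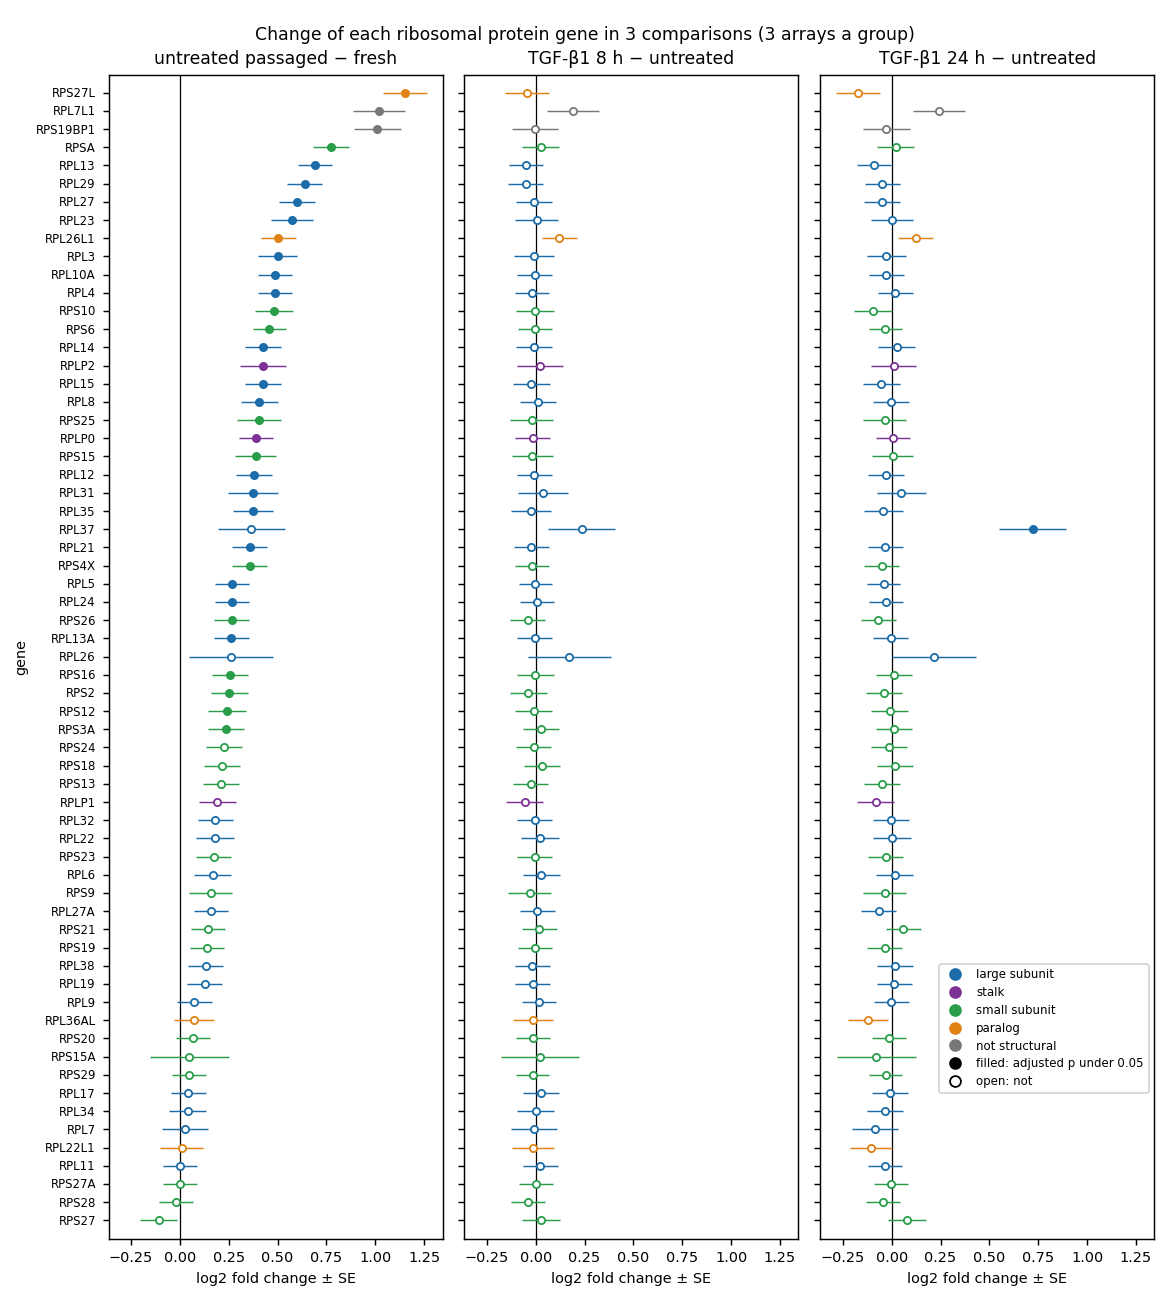
Log2 fold change with its SE (x axis) of each of the 63 genes (y axis, sorted by the change in culture) in 3 comparisons of 3 against 3 arrays, coloured by role, with filled points past an adjusted p of 0.05. In culture the points run from -0.11 to 1.15 with 34 filled, while with TGF-β1 nearly all sit at 0 and RPL37 at 24 h is the single filled point.

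The size of the change varied with signal. The 22 genes with a mean of 15 or more had a median change of 0.20, the 21 between 14.5 and 15 one of 0.36, the 12 between 13 and 14.5 one of 0.39, and the 8 under 13 one of 0.43. Probe sets of other genes showed the same order in absolute size between 13 and the top: 0.65 from 13 to 14.5, 0.38 from 14.5 to 15 and 0.28 above that. The 8 members under 13 ran from 0.01 to 1.15. They held the paralogs RPL22L1, RPL26L1 and RPS27L, the non-structural RPL7L1 and RPS19BP1, RPL37, and RPL26 and RPS15A near the background. Signal and kind of gene cannot be told apart among them. The highest value in the table was 15.95, and whether signals near the top of the scale understate a change was not tested. Among the 108 other probe sets over log2 14, 41.7% were called higher and 21.3% lower. The smallest change that passed the test was 0.24, in RPS3A, and the largest that did not was 0.36, in RPL37. In limma the error of a gene is drawn towards that of all probe sets, here a prior SD of 0.183, which is over the 0.0526 of these genes. With an error that follows signal, 45 of 63 rose, the same 34 among them, beside 42.6% of all genes.

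**Figure D3:**
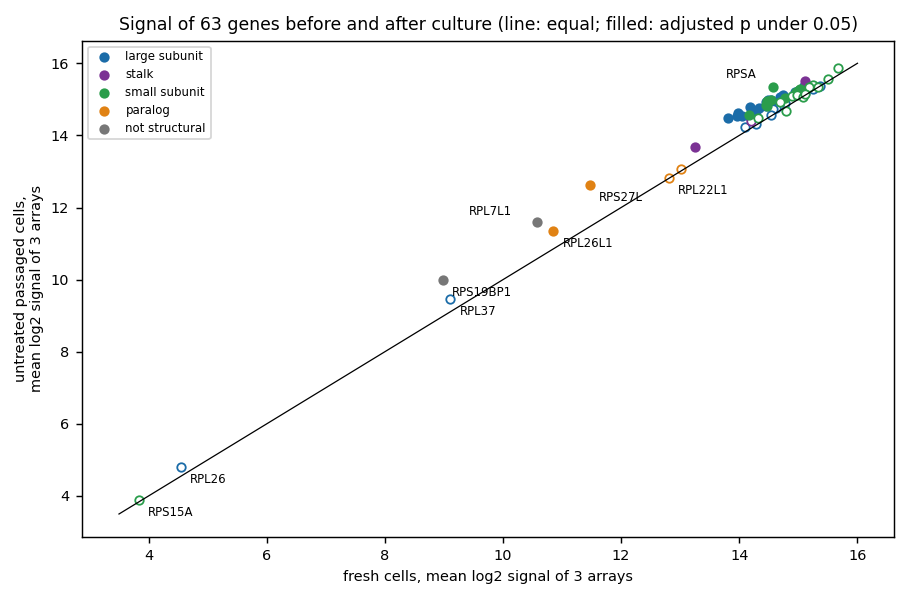
Mean log2 signal of the 63 representatives in 3 fresh arrays (x axis) and 3 untreated passaged arrays (y axis), coloured by role, filled where the adjusted p was under 0.05, with the line of equal signal. Most genes crowd near the top right just above the line, RPS15A and RPL26 lie near the background, and RPS27L, RPL7L1 and RPS19BP1 sit farthest above the line.

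Further probe sets of the same genes did not always move with the representative. For 22 of the 63 genes the array held more than 1 member probe set, 27 in addition to the representatives. Over all 90 probe sets 41 rose and 4 fell, beside 33.6% of all 17638 probe sets called higher and 25.8% called lower. Of the 27, 19 lay under log2 9 on average. Among all 27, 7 rose, 4 fell and 12 had a sign opposite to their representative. The 4 over log2 13 on average all rose: the second RPL27 (0.53) and RPL31 (0.35) probe sets were close to their representatives at 0.60 and 0.37. The other RPS18 probe sets rose by 0.49 and 0.94, while the representative differed by 0.22 (adjusted p = 0.0575).

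Opposite signs lay only in probe sets of lower signal, while RPS18 differed in size and call at high signal. A second RPS25 probe set fell by 1.47 ± 0.207 and a second RPS12 one by 0.33 ± 0.126, where the representatives rose by 0.40 and 0.24. A second RPS27A probe set fell by 0.81 ± 0.168 and a second RPL9 one by 0.61 ± 0.198, where the representatives did not pass the test. The other way, a second RPL35 probe set rose by 1.68 ± 0.153 against 0.37, and a second RPS27 one by 1.35 ± 0.217 against -0.11. In 8 genes the names of the representative and a further probe set differed only in the letter A or S. The further probe sets of these pairs lay 6.55 to 9.96 lower in mean signal, and none passed the test. Those of RPL17, RPL23, RPL24, RPL32 and RPS6 had the opposite sign, and those of RPL6, RPL12 and RPL13A the same sign. Ribosomal protein genes have many near-identical processed copies in mammalian genomes. Which transcript each further probe set catches was not tested. The calls of RPS12 and RPS25 are therefore uncertain, as are the missing calls of RPS18, RPS27, RPS27A and RPL9, whose further probe sets passed the test.

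**Figure D4:**
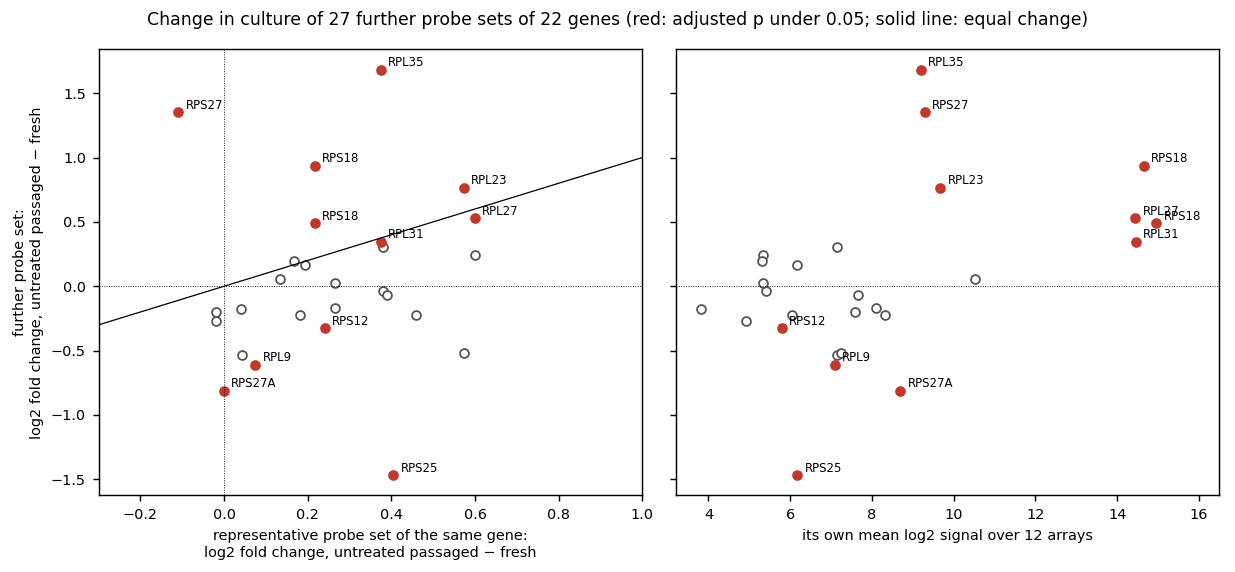
Log2 fold change between untreated passaged and fresh cells (y axis) of the 27 further probe sets of 22 member genes, against that of the representative of the same gene (left) and against their own mean log2 signal (right), with red points past an adjusted p of 0.05. RPS25 and RPS27 lie far from the line of equal change, and the points past log2 13 are all positive.

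After 8 h of TGF-β1 no ribosomal protein gene differed past the threshold from untreated passaged cells. The mean over the 63 genes was 14.24, 14.25 and 14.21 in the 8 h arrays, which spans the untreated ones. In the limma fit 0 of the 63 genes passed the test, and 0 had an unadjusted p under 0.05, beside 5.59% of all genes called (2.74% higher, 2.84% lower) and 18.9% with an unadjusted p under 0.05. Changes ran from -0.06 in RPLP1 to 0.24 in RPL37, and 59 of the 63 lay within 0.1 of 0, against 36.1% of all genes. That share is not matched for signal. Members lie high and spread less between replicates than all probe sets, so it does not show a stability particular to them. For the 53 genes with a mean over log2 14 no change exceeded 0.06 in size, and no end of their 95% intervals lay farther than 0.32 from 0. The 2 groups did not overlap for 3 of the 63 genes, RPL26L1 (higher) and RPLP1 and RPS28 (lower), beside 28.1% of all genes. Signs this small followed the scaling: 21 genes lay above 0 as deposited, 60 with equal array medians and 23 with quantile normalization.

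RPS6, the S6 kinase substrate, gave 14.99, 15.00 and 15.00 untreated, 15.00, 15.00 and 14.97 at 8 h, and 14.95, 15.00 and 14.93 at 24 h. RPSA gave 15.43, 15.38 and 15.30 at 8 h and 15.40, 15.36 and 15.35 at 24 h, beside 15.27 to 15.41 untreated. RPLP0 lay between 15.43 and 15.55 in the 6 treated arrays and between 15.47 and 15.54 untreated. In these 3 genes treated and untreated arrays overlapped.

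At 24 h, RPL37 rose and no other member passed the test, beside 10.1% of all genes called (4.42% higher, 5.67% lower). The mean over the 63 genes was 14.21, 14.27 and 14.20, which spans the untreated arrays. The median change was -0.03, and 56 of the 63 changes lay within 0.1 of 0, against 31.0% of all genes, again not matched for signal. Among the 53 genes over log2 14 the changes ran from -0.09 (RPS10) to 0.08 (RPS27), with no end of a 95% interval farther than 0.34 from 0. The groups did not overlap for 6 of the 63 genes, higher in RPL26L1, RPL37 and RPS21 and lower in RPL13, RPL27A and RPS28, beside 30.1% of all genes. RPS27L had the lowest value, -0.17 (adjusted p = 0.406), with 12.36, 12.65 and 12.36 against 12.57, 12.69 and 12.63 untreated. RPL7L1 gave 0.24 (adjusted p = 0.317) and RPL26L1 0.12 (adjusted p = 0.467).

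RPL37, a zinc-binding protein of the large subunit, had a signal far from the top of the scale. It gave 9.17, 9.08 and 9.08 in fresh cells, 9.13, 9.53 and 9.76 in untreated passaged cells, 9.60, 9.62 and 9.91 at 8 h, and 10.24, 9.93 and 10.42 at 24 h. All 24 h arrays lay above all others. The rise from untreated to 24 h was 0.72 ± 0.171 (adjusted p = 0.0229) or 1.65-fold, and 24 h against 8 h gave 0.49 (adjusted p = 0.389). The call rested on single arrays. Leaving out the first untreated array gave 0.55 (adjusted p = 0.0850), leaving out the first 24 h array 0.70 (adjusted p = 0.0721) and the third 0.61 (adjusted p = 0.0721). A fit of these 2 groups alone gave an adjusted p of 0.109, and over all alternatives it ran from 0.00894 to 0.109. RPL37 had no further member probe set, and its own lay at a mean of 9.62. At 9.20 to 9.67, further probe sets of RPL35 and RPS27 changed in culture by 1.68 and 1.35, against 0.37 and -0.11 in the representatives. That of RPL23 was closer, at 0.77 against 0.57. Which transcript the RPL37 probe set catches was not tested.

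Between 24 h and 8 h of TGF-β1, 0 of 63 genes passed the test in limma and 1, RPL37, had an unadjusted p under 0.05, beside 0.283% of all genes called and 9.18% with an unadjusted p under 0.05. RPL37 and RPS21 did not overlap, beside 15% of all genes. Changes ran from -0.13 in RPS27L to 0.49 in RPL37.

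Ribosome assembly genes and others around translation were set beside the members as lists. Of all 6014 genes, 42.1% were called higher in culture and 24.2% lower. In culture, 42 of 53 measured assembly and ribosomal RNA processing genes rose and 2 fell, with a median of 0.80. RPF2, which brings the 5S particle into the large subunit, rose by 2.31 ± 0.182, and WDR12, of the same subunit's maturation, by 1.93 ± 0.154. Of the RNA polymerase I genes 9 of 12 rose and 0 fell, with a median of 0.61, POLR1B (its second largest subunit) by 2.41 ± 0.161. All 17 measured cytosolic aminoacyl-tRNA synthetases rose, with a median of 1.52, among them MARS by 2.59 ± 0.107. Of the mitochondrial ribosomal proteins, which serve a separate ribosome, 54 of 58 rose and 0 fell, with a median of 1.00, MRPS34 by 2.72 ± 0.161. The same comparison gave the cytosolic ribosomal proteins 34 of 63 and 0.26.

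Translation factors and the other TOP messages had medians nearer to that of the members. Of the initiation factors 15 of 30 rose and 5 fell (median 0.34), beside 42.1% and 24.2% of all genes. EIF2S2, a subunit of the factor that brings the initiator tRNA, rose by 1.35 ± 0.124. Of the elongation and release factors 3 of 5 rose and 0 fell (median 0.36), EEF1G by 0.44 ± 0.0860 and EEF1B2 by 0.36 ± 0.0899. Of 17 other genes with a TOP tract, a list that shares members with those of translation factors and assembly genes, 9 rose and 1 fell (median 0.36). RACK1, a scaffold on the small subunit, rose by 0.51 ± 0.0912, and the nucleolar protein NPM1 by 0.80 ± 0.105. FAU, which carries the ribosomal protein eS30 behind a ubiquitin-like domain, gave 14.83, 14.73 and 14.86 against 14.87, 14.91 and 14.87, a difference of 0.08 (adjusted p = 0.472). PABPC1 differed by -0.17 (adjusted p = 0.161), and TPT1 was the 1 that fell, by 0.23 ± 0.0882 (adjusted p = 0.0404), a call lost when any fresh or untreated array was left out. Of the nascent chain and ribosome-associated factors 15 of 18 rose and 0 fell, with a median of 0.62.

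**Figure D5:**
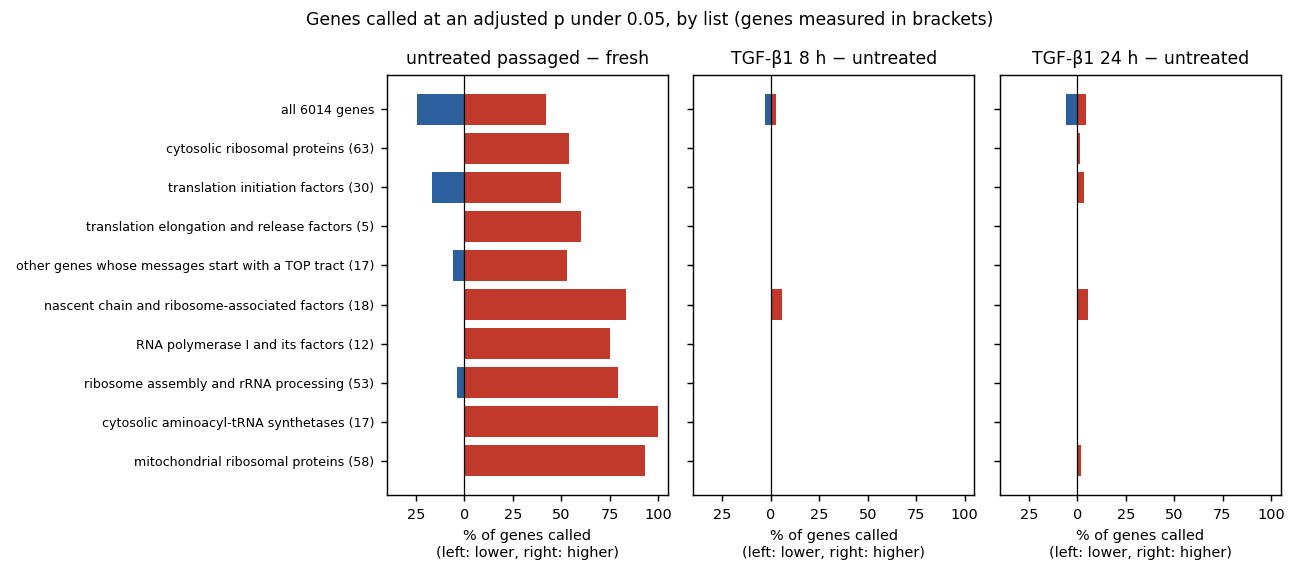
Share of genes called higher (right, red) and lower (left, blue) at an adjusted p under 0.05 in each list (y axis, number measured in brackets), beside all 6014 genes, in 3 comparisons. In culture the cytosolic ribosomal proteins are nearer to all genes than the assembly, tRNA synthetase and mitochondrial ribosomal lists, and with TGF-β1 each list drawn has 0 or 1 gene called. The list of regulators of translation is not drawn.

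Of the regulators of translation 5 of 14 measured genes rose and 4 fell. Among all genes, 42.1% were called higher and 24.2% lower, so the mix is not particular to this list. MYC, which drives ribosomal RNA and ribosomal protein transcription in many cells, gave 11.50, 11.93 and 11.30 in fresh cells and 10.01, 10.06 and 9.32 in untreated passaged cells, and fell by 1.78 ± 0.201. PPP1R15A, a stress-induced phosphatase subunit that restores initiation, fell by 3.77 ± 0.137. The kinase EIF2AK2 rose by 1.37 ± 0.208. Beside the ribosomal protein rise, 18 of 19 measured cell cycle genes rose (median 3.33), 15 of 16 fell in the list of heat shock and immediate-early genes (median -3.56) and macrophage markers fell as given above. The part of these in the ribosomal protein result was not tested.

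With TGF-β1, 0 of 53 assembly genes passed the test at 8 h or at 24 h, beside 5.59% and 10.1% of all genes. Their medians were 0.21 and 0.23, beside -0.005 and 0.007 over all probe sets. At 24 h EIF6, which keeps the subunits apart and acts in large subunit maturation, rose by 0.66 ± 0.133 (adjusted p = 0.0101), from 11.65 to 12.31 on average. It was the 1 initiation factor of 30 that passed, and at 8 h it gave 0.47 (adjusted p = 0.0708). Of the 14 regulators of translation, 2 passed at 24 h in the limma fit, near the 10.1% of all genes called. PPP1R15A rose by 0.53 (adjusted p = 0.0337) and PPP1R15B by 0.59 (adjusted p = 0.0486). Their calls were lost under 6 and 14 of 21 alternatives. Among cell cycle genes 6 of 19 fell at 24 h, beside 5.67% of all genes, and whether this bears on the ribosomal values was not tested. Replicate numbers linked the P2 arrays, and with the number as a block over these 9 arrays 6 assembly genes rose at 8 h and 10 at 24 h, beside 14.2% and 23.1% of all genes called in either direction. In that same fit 0 of 63 ribosomal protein genes passed at 8 h and 1 at 24 h, again RPL37 (adjusted p = 0.00894). Of the mitochondrial ribosomal proteins 3 of 58 rose at 8 h and 6 at 24 h under the block, against 0 and 1 without it. Initiation factors went from 0 to 2 higher and 1 lower at 8 h and from 1 higher to 5 higher and 1 lower at 24 h.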

How the data were processed

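The authors deposited log2 signals of an Affymetrix porcine array, with a column for each array, and the submitters' processing notes name GCRMA. The sources used here give neither its version nor any batch. The RNA was total RNA, 500 ng per labelling, per the labels' protocols. All 12 arrays were fitted by group means with limma 3.58.1 in R 4.3.3 (lmFit, eBayes; 8 residual and 3.745 prior degrees of freedom), two-sided, with Benjamini-Hochberg adjustment over the 17638 probe sets over log2 4 in at least 3 arrays. The 64 reporter controls were left out. A gene was represented by its 1-symbol probe set with the highest mean. Of 10069 probe sets with 1 symbol, 9961 had a gene ID in the RefSeq table, 198 had several symbols and 13732 none, and 8 probe sets that pair a ribosomal protein with another symbol were left out.

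The members and the lists were chosen with earlier results of these data known. Named were the 8 largest rises, a panel of members and, from each list, up to 4 called genes or the 2 with the smallest p, and others were added after their values were seen, to account for all members. RNA quality from spike or 3′ to 5′ probe sets, sequences and promoters were not analysed here. The fit was tested on simulated data. The number of arrays limits the precision: the median standard error was 0.0916 for members and 0.159 for all probe sets. After group means were removed, same-number P2 arrays correlated at 0.348 to 0.679 (9 pairs), so replicate numbers pair the P2 arrays, while with fresh arrays the values were -0.0916 to 0.0158.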

Additional observations from a re-analysis of the deposited data

How the results depend on the processing

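The 63 genes were recounted under 21 alternatives: other filters, scalings and error models, the replicate block, each array left out and, chosen after seeing the data, without the 3 P2 arrays numbered 3. In culture 25 to 45 genes rose, and 25 kept their call under all 21. The 9 others, RPL5, RPL13A, RPL24, RPL31, RPS2, RPS3A, RPS12, RPS16 and RPS26, lost it under at least 1. Leaving out 1 array gave 27 to 35. Beside these, 42.1% of all genes were called higher in the main fit and 42.6% with an error that follows signal. The share of all probe sets called in either direction also moved with the setting. It was 59.4% in the main fit, 58.7% with equal array medians and 55.1% without the first fresh array. With the block it was 62.5%, and with log2 over 6 in at least 3 arrays 70.4%. The median of 0.26 was 0.197 after quantile normalization and 0.183 with equal array medians. With every member probe set counted, 4 fell in place of 0, because more probe sets were counted. The single rise at 24 h became 0 with only the 2 groups compared, where fewer arrays set the error, and 0 to 1 when an array was left out. The median of 24 h against 8 h was -0.0681 with equal array medians against -0.0159. At 8 h no alternative called a member. With the replicate block 33 genes rose in culture, RPS12 being lost, and 0 and 1 at 8 h and 24 h, so the pairing changed no other member's call. Of all probe sets, 7.28% and 12.6% were called in either direction at 8 h and 24 h under that block. Without the P2 arrays numbered 3, 26 rose. With TGF-β1 the EIF6 call was lost under 2 of 21 alternatives. The smallest change called in culture was 0.24, a limit that moved with the error model: with an error that follows signal, RPS19 was called at 0.14.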
